A study of Arabidopsis thaliana with 18 samples.

Results

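*BPE* (*BIGPETAL*, also named *bHLH031*, *At1g59640*) and *HAF* (also named *CESTA* or *bHLH075*, *At1g25330*) encode basic helix-loop-helix (bHLH) transcription factors of 2 different organs of the Arabidopsis flower, the petal and the carpel. Both genes lie on chromosome 1. They were chosen by gene identity, and each is measured by 1 probe set of the 22746 probe sets of the Affymetrix ATH1 array that were tested. The platform's annotation gives each of these probe sets 1 gene.

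Proteins of the bHLH family bind DNA as dimers through a basic region. *BPE* limits petal size by restraining the expansion of petal cells, and its transcript is spliced into a widely expressed form and a petal-enriched form that is promoted by jasmonate. *HAF* acts redundantly with its relatives *BEE1* and *BEE3* in the differentiation of the transmitting tract, the tissue of the carpel through which pollen tubes grow, and it is also known from brassinosteroid response. RefSeq lists 2 transcripts for *BPE* and 1 for *HAF*. The sources used here do not give where the probes lie in the genes, so the splice forms of *BPE* are 1 value here and cannot be told apart.

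Whole flowers of the Columbia ecotype were compared in the double mutant *arf6-2 arf8-3*, in the double mutant *myb21-5 myb24-5* and in wild type, at stage 13 and at stage 12, with 3 biological replicates (A, B and C) in each of the 6 groups. Stage 12 flowers were the oldest closed buds and stage 13 flowers the youngest open ones. Mutant flowers do not open at stage 13, so that those of the same age were picked by their position. *ARF6* and *ARF8* encode auxin response factors that promote jasmonate production and the growth of petals, stamens and gynoecium. *MYB21* and *MYB24* encode MYB factors induced by jasmonate. *myb21-5* has a stop codon in the coding sequence and came from a mutagenised line, and *myb24-5* is a T-DNA insertion, so that a transcript of either gene can remain. The labels name no treatment and do not give the age of the plants.

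Replicate A of the *myb21-5 myb24-5* stage 13 group was not used, which left 17 arrays and 2 in that group. It had log2 values of 4.75 for *ARF6* and 5.68 for *ARF8*. The 6 *arf6-2 arf8-3* arrays lay between 4.73 and 5.27 for *ARF6* and between 5.73 and 6.41 for *ARF8*. The other 5 *myb21-5 myb24-5* arrays lay between 9.21 and 9.73 for *ARF6*, and the wild-type arrays between 9.14 and 9.57 at stage 13 and between 9.14 and 9.77 at stage 12. *MYB21* lay between 10.62 and 11.95 on these 5 mutant arrays, below every wild-type array (12.31 to 12.39 at stage 13 and 12.36 to 12.47 at stage 12). *MYB24* lay between 8.10 and 9.85 on them and overlapped with wild type (8.37 to 8.73 at stage 13 and 9.47 to 10.24 at stage 12), so that its level does not check the label. Compared pair by pair, the unused array was closest to *arf6-2 arf8-3* stage 13 replicate A, where the log2 differences had an SD of 0.12. Against replicates B and C of its own group this SD was 0.54 and 0.55, while B against C gave 0.24. Results given below with the unused array, or with all 18 arrays, include an array of this profile. The medians of the 18 arrays lay between 7.71 and 7.78. None of the 7 floral organ identity genes listed as a check of the tissue had a probe set with a gene name here, so that check could not be made. *INO*, which marks the outer integument of the ovule, had group means between 8.63 and 9.01 in all 6 groups.

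*BPE* fell in *arf6-2 arf8-3* flowers at both stages, by 4.01-fold at stage 12 and by 2.24-fold at stage 13. In *myb21-5 myb24-5* flowers it was not called at stage 12 and rose by 1.67-fold at stage 13. In wild type *BPE* fell by 2.16-fold between stage 12 and stage 13, whereas neither double mutant showed a stage change that passed the test. Fewer changes of *HAF* passed the test: it fell by 1.81-fold in *arf6-2 arf8-3* flowers at stage 13, and none of its 11 comparisons reached the 2-fold cutoff. The words rose and fell are used where the p-value from limma, adjusted over all 22746 probe sets, was under 0.05, and a gene was called where the change was also at least 2-fold. In whole flowers, fewer cells of a type and less RNA per cell cannot be told apart.

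At stage 12, *BPE* had log2 values of 9.23, 9.21 and 9.09 in *arf6-2 arf8-3* flowers (replicates A, B and C), against 11.28, 10.82 and 11.45 in wild-type flowers. Every mutant array lay at least 1 log2 unit below every wild-type array, and the groups did not overlap. The group means were 9.18 ± 0.07 in the mutant and 11.18 ± 0.33 in wild type (SD, n = 3 each). The change was -2.0 on the log2 scale (SE 0.16, 95% interval -2.33 to -1.67, adjusted p = 7.8e-07), the 176th largest decrease of all 22746 probe sets. In this comparison 3.03% of all probe sets were called lower, and 11.4% had lower *arf6-2 arf8-3* values with no overlap. *BPE* stands in the study's list of genes changed at least 2-fold at stage 12 on these same arrays, so that list is no independent evidence of its direction.

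At stage 13, *BPE* had values of 8.86, 9.11 and 8.74 in *arf6-2 arf8-3* flowers, against 10.15, 9.97 and 10.09 in wild-type flowers. The groups were again apart, with means of 8.90 ± 0.19 in the mutant and 10.07 ± 0.09 in wild type (SD, n = 3 each). In this comparison 16.6% of all probe sets were lower without overlap. The change was -1.17 (SE 0.16, 95% interval -1.50 to -0.83, adjusted p = 6.9e-05), with 3.72% of all probe sets called lower. Wild type lay lower at this stage than at stage 12, while the *arf6-2 arf8-3* means of the stages lay 0.27 apart.

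The *myb21-5 myb24-5* mutant gave another pattern. At stage 12, *BPE* had values of 10.47, 10.92 and 10.86 in this mutant, against 11.28, 10.82 and 11.45 in wild type, and the groups overlapped. The change of -0.43 did not pass the test (SE 0.16, 95% interval -0.76 to -0.10, adjusted p = 0.178, with 1.05% of all probe sets called lower). At stage 13, the 2 arrays of the mutant had 10.75 and 10.87, above each of the wild-type arrays with 10.15, 9.97 and 10.09. *BPE* therefore was higher in this mutant by 0.74 (SE 0.17, 95% interval 0.37 to 1.11, adjusted p = 0.0115), which is under the 2-fold cutoff. With the unused array, at 8.83, the change was 0.08 (adjusted p = 0.952). Without the mutant's replicate B it was 0.80 (adjusted p = 0.0551), and without its replicate C 0.68 (adjusted p = 0.117). In this comparison 5.04% of all probe sets passed the test as higher at any fold, and 22.3% were higher with no overlap between groups of 2 and 3 arrays.

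**Figure D1:**
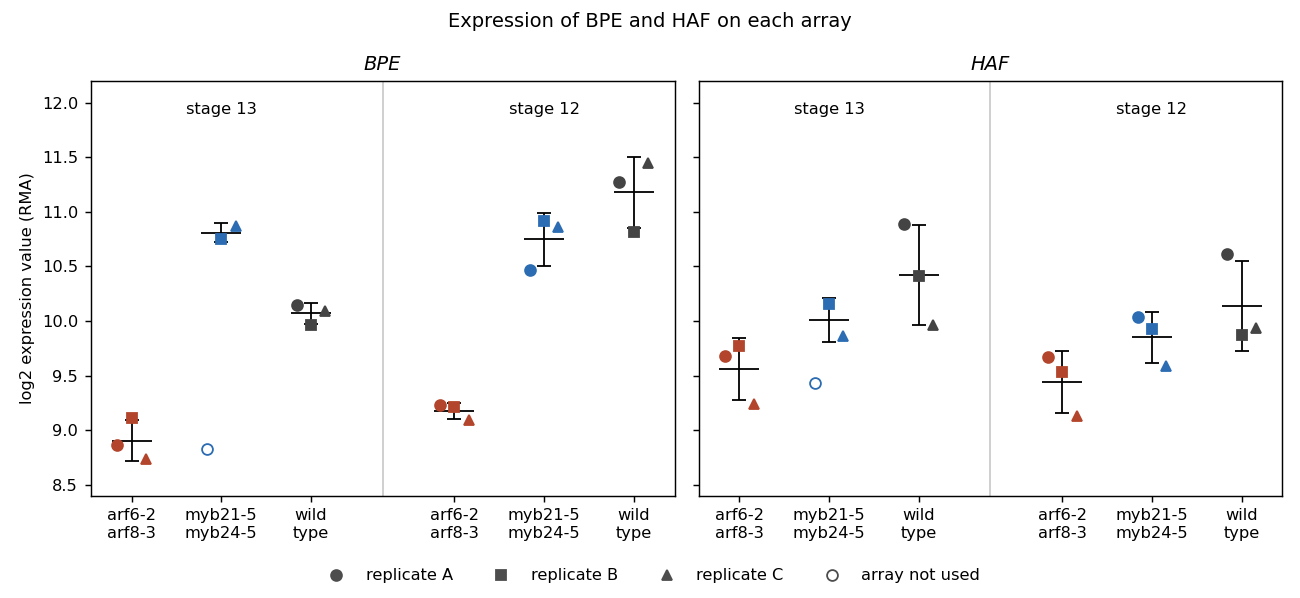
Deposited log2 expression value (RMA) of *BPE* (left) and *HAF* (right) on each array, by genotype and stage, with marks for replicates A, B and C and black bars for the mean and SD of the arrays used. The *arf6-2 arf8-3* arrays of *BPE* lie below 9.3 at both stages, and wild-type *BPE* is lower at stage 13 than at stage 12. The open circle is the array that was not used, with 8.83 for *BPE* and 9.44 for *HAF*.

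In wild-type flowers *BPE* had values of 10.15, 9.97 and 10.09 at stage 13, against 11.28, 10.82 and 11.45 at stage 12, without overlap (12.1% of all probe sets were lower in this way). The change was -1.11 (SE 0.16, 95% interval -1.44 to -0.78, adjusted p = 0.00035), and 1.76% of all probe sets were called lower. Leaving out wild-type stage 12 replicate C, the highest array, gave -0.98 (adjusted p = 0.0025), just under the 2-fold cutoff. With all 18 arrays, whose larger spread enters every comparison, the adjusted p was 0.0949. In *arf6-2 arf8-3* flowers the stage change was -0.27 (95% interval -0.61 to 0.06, adjusted p = 0.424), and the arrays of the stages overlapped, with 0.831% of all probe sets called. In *myb21-5 myb24-5* flowers it was 0.06 (95% interval -0.31 to 0.43, adjusted p = 0.875), also with overlap and with 2.09% of all probe sets called. With the unused array it was -0.60 (adjusted p = 0.404).

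The stage change of *BPE* in *myb21-5 myb24-5* exceeded that in wild type by 1.17 (SE 0.23, 95% interval 0.67 to 1.67, adjusted p = 0.0168 for the stage by genotype term), and 1.02% of all probe sets were called in this direction. This call rests on both of the mutant's stage 13 arrays. Without replicate B the difference was 1.23 (adjusted p = 0.0556), without replicate C it was 1.11 (adjusted p = 0.104), and with the unused array of that group it was 0.51 (adjusted p = 0.834). For *arf6-2 arf8-3* the difference from the wild-type stage change was 0.84 (SE 0.22, 95% interval 0.37 to 1.31, adjusted p = 0.0722), which did not pass the test, while it did without wild-type stage 12 replicate B (1.02, adjusted p = 0.0137). With the replicate letter as a block it was again 0.84, with an adjusted p of 0.0496, just under the threshold. In the term for *arf6-2 arf8-3*, 0.343% of all probe sets were called higher.

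Set directly against each other, the mutants differed in *BPE* at both stages. At stage 12 it was lower in *arf6-2 arf8-3* than in *myb21-5 myb24-5* by 1.57 on the log2 scale, a log2 change of -1.57 (SE 0.16, adjusted p = 1.5e-05, 2.97-fold, with 1.57% of all probe sets called lower). At stage 13 the log2 change was -1.91 (SE 0.17, adjusted p = 4.3e-06, 3.75-fold, with 2.8% called lower), and with the unused array -1.25 (adjusted p = 0.183). In neither stage did the arrays of the 2 mutants overlap, as for 9.29% of all probe sets at stage 12 and 26.7% at stage 13 that were lower in this way.

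In order of the group means, *BPE* was highest in wild type at stage 12 (11.18), followed by *myb21-5 myb24-5* at stage 13 (10.81) and at stage 12 (10.75), wild type at stage 13 (10.07), *arf6-2 arf8-3* at stage 12 (9.18) and *arf6-2 arf8-3* at stage 13 (8.90). The first 3 groups overlapped from neighbour to neighbour, and so did the last 2. The gaps of 0.68 above wild-type stage 13 and of 0.89 below it had no overlap of arrays. The groups on either side of these gaps differ in both genotype and stage and were not compared by a test. How many of all probe sets are as far apart there was not computed.

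*HAF* had log2 values of 9.67, 9.53 and 9.13 in *arf6-2 arf8-3* flowers at stage 12, against 10.61, 9.87 and 9.93 in wild-type flowers. All 3 mutant arrays lay below all 3 wild-type arrays, the closest pair having 9.67 and 9.87. The change of -0.70 did not pass the test (SE 0.25, 95% interval -1.23 to -0.17, adjusted p = 0.0857). Its rank was 1210 among all decreases, and 11.4% of all probe sets were as well apart in this direction. With the replicate letter as a block the adjusted p was 0.0019 (SE 0.13), although same-letter arrays of these groups did not all deviate together. The paper names *HAF* as a gene that the *arf6-2 arf8-3* mutant alone affects, from lists with a 2-fold cutoff, which the change of -0.70 does not reach.

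At stage 13, *HAF* had 9.68, 9.77 and 9.24 in *arf6-2 arf8-3* flowers, against 10.89, 10.42 and 9.96 in wild-type flowers, again without overlap. It fell by 0.86 on the log2 scale (SE 0.25, 95% interval -1.39 to -0.33, adjusted p = 0.0227). At any fold, 9.3% of all probe sets passed the test as lower here and 16.6% were lower without overlap, so that such a decrease was not rare. Without wild-type stage 13 replicate C, the lowest wild-type array, the change was -1.09 (adjusted p = 0.0078) and *HAF* would be called. The test was no longer passed without wild-type replicate A (-0.63, adjusted p = 0.116), wild-type replicate B (-0.86, adjusted p = 0.0577) or mutant replicate C (-0.70, adjusted p = 0.109). These fits took no account of the replicate letter. With the letter as a block and all 17 arrays, the change was -0.86 (SE 0.13, adjusted p = 0.00024), still under the 2-fold cutoff. For *HAF* the change of the *arf6-2 arf8-3* difference between the stages was -0.16 (95% interval -0.91 to 0.59, adjusted p = 0.972), hence the stages gave no detectable difference in this effect.

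In *myb21-5 myb24-5* flowers *HAF* had 10.04, 9.92 and 9.59 at stage 12, against 10.61, 9.87 and 9.93 in wild type. At stage 13 it had 10.15 and 9.87 in this mutant, against 10.89, 10.42 and 9.96 in wild type. The groups overlapped at both stages. The changes were -0.29 (95% interval -0.82 to 0.24, adjusted p = 0.73) and -0.41 (95% interval -1.0 to 0.18, adjusted p = 0.424), so that a decrease of up to about 2-fold at stage 13 lies within the interval. The mutant's stage 13 group lacks replicate A, which in wild type was the highest array (10.89). With the replicate letter as a block, the stage 13 change was -0.27 (SE 0.15, adjusted p = 0.264). With the unused array, at 9.44, the stage 13 change was -0.60 (adjusted p = 0.195).

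Between the stages, *HAF* in wild type had a change of 0.28 (95% interval -0.25 to 0.81, adjusted p = 0.645), in *arf6-2 arf8-3* of 0.12 (95% interval -0.41 to 0.65, adjusted p = 0.894) and in *myb21-5 myb24-5* of 0.16 (95% interval -0.43 to 0.75, adjusted p = 0.794). The mutants were not distinguished from each other by the test, with changes of *arf6-2 arf8-3* against *myb21-5 myb24-5* of -0.41 at stage 12 (adjusted p = 0.416) and -0.45 at stage 13 (adjusted p = 0.334). With the replicate letter as a block the stage 13 change was -0.59 (adjusted p = 0.0125), under the 2-fold cutoff, with only replicates B and C in both groups. The stage by genotype term for *myb21-5 myb24-5* was -0.12 (95% interval -0.92 to 0.67, adjusted p = 0.94).

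Ordered by group mean, *HAF* was highest in wild type at stage 13 (10.42) and stage 12 (10.14), then in *myb21-5 myb24-5* at stage 13 (10.01) and stage 12 (9.85), and lowest in *arf6-2 arf8-3* at stage 13 (9.56) and stage 12 (9.44). Each pair of neighbours in this order overlapped. The spread within groups of *HAF* ran with the replicate letter: replicate C was the lowest array in 5 of the 6 groups, and replicate A the highest in 4 of the 5 groups in which it was used. For *BPE* replicate C was lowest in 2 groups and replicate B in 3. The labels do not say what arrays of 1 letter share.

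**Figure D2:**
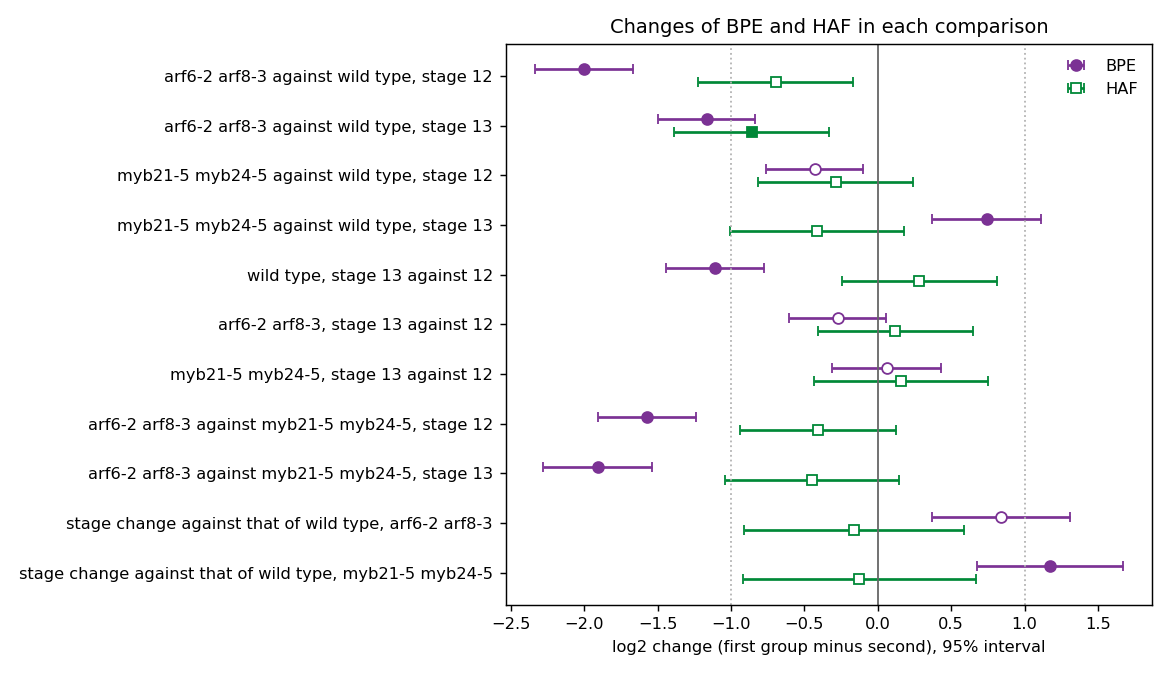
Log2 change with its 95% interval for *BPE* (circles) and *HAF* (squares) in the 11 comparisons, each as the first group minus the second, with dotted lines at a 2-fold change. Filled marks had an adjusted p under 0.05: 7 of the 11 *BPE* changes, from -2.0 to 1.17, and 1 of *HAF*, -0.86 in *arf6-2 arf8-3* at stage 13.

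Markers of other flower parts moved in some of the same comparisons. Of 6 listed pollen genes 3 were measured (*AGL66*, *ACT12* and *TUB9*), and none was at 0. Their summed linear signal was 1763 to 2119 in *arf6-2 arf8-3* and 2784 to 3044 in wild type at stage 12. At stage 13 it was 2044 to 2256 in *arf6-2 arf8-3*, 2895 to 3517 in *myb21-5 myb24-5* and 2269 to 2551 in wild type. In *myb21-5 myb24-5* at stage 12 it was 2142 to 2493, below wild type without overlap, although none of the 3 genes passed the test there. The *BPE* change of -0.43 in that comparison did not pass it either. The single genes did not all follow the sum: *AGL66* changed by 0.61 in *arf6-2 arf8-3* at stage 13 (adjusted p = 0.21) and *TUB9* by 0.14 in wild type at stage 13 against stage 12 (adjusted p = 0.48), both opposite in sign to *BPE*. The part of the pollen genes in the *BPE* changes was not tested.

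Of 6 listed carpel and ovule genes *CRC*, a carpel and nectary regulator, and *INO* were measured. Their sum was 673 to 811 in *arf6-2 arf8-3* and 1133 to 1427 in wild type at stage 12, and 640 to 775 in *arf6-2 arf8-3* and 1216 to 1356 in wild type at stage 13. *CRC* fell in this mutant by 1.32 at stage 12 and by 2.13 at stage 13 (adjusted p = 0.00067 and 4.2e-06), while *INO* changed by -0.02 and 0.24 without passing the test (adjusted p = 0.98 and 0.52). *CRC* was named only through the study's tables of genes changed on these arrays. The lower sum at stage 12 is therefore not independent of that choice. The part of these carpel markers in the *HAF* changes was not tested. Of 5 tapetum genes 1, *AMS*, was measured, and it passed no test against wild type.

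Among 17 listed bHLH genes of the group to which *BPE* and *HAF* belong, 7 were measured under a gene name, these 2 and 5 relatives. At any fold, 4 of the 7 fell and 1 rose in *arf6-2 arf8-3* at stage 12, and 5 fell and 2 rose at stage 13. In this mutant 6.86% and 9.3% of all probe sets fell at these stages, and 6.23% and 10.7% rose. The median change of the 7 was -0.70 at stage 12 and -0.97 at stage 13, beside 0.01 and -0.0015 over all probe sets. These counts and medians include *BPE* and *HAF* themselves, and *BEE3*, which was named only through the study's tables of genes changed on these arrays. Among the 6 genes named by the platform table, 3 fell and 1 rose at stage 12, and 4 fell and 2 rose at stage 13. Their median changes were -0.66 and -0.92. In *myb21-5 myb24-5*, 3 of the 7 fell at stage 12 (background 2.18%), and 3 fell and 1 rose at stage 13 (background 5.67% and 5.04%). Of the 6 named by the platform table, 2 fell at stage 12, and 2 fell and 1 rose at stage 13.

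*BEE3*, which acts with *HAF* in the transmitting tract, had larger decreases than *HAF*, although the difference between the genes was not tested. At stage 12 it had 5.34, 5.29 and 5.30 in *arf6-2 arf8-3*, against 7.50, 7.10 and 7.13 in wild type, a change of -1.93 (SE 0.14, adjusted p = 5.5e-07). At stage 13 it had 5.02, 5.40 and 5.46 in this mutant, against 8.29, 8.38 and 7.99 in wild type, a change of -2.92 (SE 0.14, adjusted p = 2.6e-09). All 6 mutant arrays of *BEE3* lay below 5.5 and all 6 wild-type arrays at or above 7.10. The probe set of *BEE3* is named only by the study's list of genes changed on these arrays, so that its direction at stage 12 is not independent of the choice.

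*BEE3* also fell in *myb21-5 myb24-5*, by 0.90 at stage 12 (adjusted p = 0.0020) and by 1.07 at stage 13 (adjusted p = 0.00039), the second being called. Without wild-type stage 13 replicate B or *myb21-5 myb24-5* stage 13 replicate C it was not called, and 1 of the 7 bHLH genes was called lower instead of 2. In wild type *BEE3* was higher at stage 13 than at stage 12 by 0.97 (adjusted p = 0.00056), while *BPE* fell over the same stages by 1.11 and *HAF* had 0.28. The stage by genotype term of *BEE3* for *arf6-2 arf8-3* was -0.99 (SE 0.20, adjusted p = 0.023), opposite in sign to the 0.84 of *BPE*. The paper names *BEE3* as not affected in *myb21-5 myb24-5*, where its stage 12 decrease of 0.90 is under the paper's 2-fold cutoff.

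Of the other relatives, *bHLH048* (*At2g42300*) fell more in *myb21-5 myb24-5* (by 1.32 at stage 12 and 1.94 at stage 13, adjusted p = 1.9e-05 and 3.5e-07) than in *arf6-2 arf8-3* (by 0.62 and 0.97, adjusted p = 0.0034 and 4.5e-05). Between the mutants it differed by 0.69 at stage 12 and 0.97 at stage 13 (adjusted p = 0.0025 and 0.00028). *At3g57800* fell in both mutants at both stages, by between 0.77 and 1.11 (adjusted p of at most 0.00087). *At5g50915* rose in *arf6-2 arf8-3*, by 1.01 at stage 12 (adjusted p = 0.010, with 0 of the 7 called higher without replicate A of either group) and by 1.76 at stage 13 (adjusted p = 8.1e-05), whereas its changes of 0.49 and 0.52 in *myb21-5 myb24-5* did not pass the test. *At5g62610* passed the test in *arf6-2 arf8-3* at stage 13 (0.35, adjusted p = 0.036) and in none of the other 3 comparisons with wild type.

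**Figure D3:**
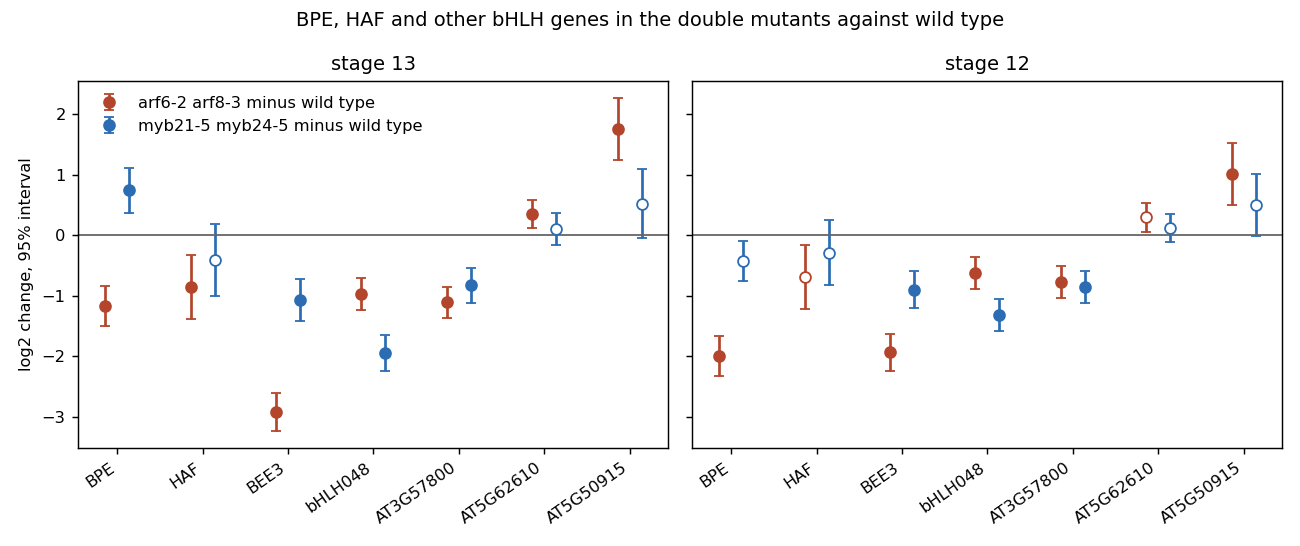
Log2 change against wild type with its 95% interval for *BPE*, *HAF* and the 5 other measured bHLH genes, at stage 13 (left) and stage 12 (right), with *arf6-2 arf8-3* in red and *myb21-5 myb24-5* in blue. Filled marks had an adjusted p under 0.05. *BPE* is the gene whose *myb21-5 myb24-5* change at stage 13 is above 0 (0.74) while its *arf6-2 arf8-3* change is below 0 (-1.17).

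Small helix-loop-helix proteins that lack DNA binding can pair with bHLH factors, and 2 of 14 listed genes of this kind and their partners were measured, both named by the study's list alone. *PRE1*, a small protein that promotes cell elongation, fell by 1.49 at stage 12 and fell by 2.07 at stage 13 in *arf6-2 arf8-3* (adjusted p = 0.00018 and 3.8e-06). *AIF4*, annotated as an interacting factor of such a protein, fell by 1.66 and 1.44 (adjusted p = 0.0036 and 0.0059). Neither passed the test in *myb21-5 myb24-5*, where *BPE* and *HAF* did not pass it at stage 12 either.

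Of 21 listed genes of petal identity and growth other than *BPE*, 7 were measured. In *arf6-2 arf8-3*, 2 were called lower at stage 12 (background 3.03%), *TCP4* and *ARF8*, the second of which is itself mutated in these flowers. Leaving out replicate C of wild type or of the mutant at stage 12 left 1 of them. *TCP4* and *ARF8* were named only through the study's tables of genes changed on these arrays, so their count cannot be read against the background. Of the 5 genes named by the platform table, 0 were called at stage 12. *TCP4*, a growth regulator of leaves and petals, had changes of -1.04 and -0.73 in *arf6-2 arf8-3* at stages 12 and 13 (adjusted p = 0.00012 and 0.0012) and of -0.85 in wild type at stage 13 against stage 12 (adjusted p = 0.00098). It also fell by 0.55 between these stages in *arf6-2 arf8-3* (adjusted p = 0.049), where *BPE* did not pass the test. *ARL*, an organ growth gene, was instead higher at stage 13 than at stage 12 in wild type by 1.85 (adjusted p = 0.0050), and it fell by 1.47 in *myb21-5 myb24-5* at stage 13 (adjusted p = 0.035), a call that was lost without any 1 of the 5 arrays compared (0 of 7 called). *JAG* fell by 0.65 in *arf6-2 arf8-3* at stage 12 (adjusted p = 0.025), under the 2-fold cutoff. *NUB*, *RBE* and *PTL* passed the test in none of the 4 comparisons with wild type. The median change of the list in *arf6-2 arf8-3* was 0.08 at stage 12 and -0.33 at stage 13, beside 0.01 and -0.0015 over all probe sets.

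Of 24 listed genes of the transmitting tract, style and stigma other than *HAF*, 10 were measured. In *arf6-2 arf8-3* 3 were called lower at both stages, *ARF6* (a change of -4.64 at stage 12), *BEE3* and *CRC*, with 3.03% of all probe sets called lower at stage 12 and 3.72% at stage 13. All 3 were named only through the study's tables of genes changed on these arrays, so their count cannot be read against that background. Of the 7 genes named by the platform table, 0 were called lower at either stage. *ARF6* is itself mutated in these flowers, so that its decrease is given by the genotype. *SPT*, a bHLH gene needed for the transmitting tract and the style, rose by 0.95 at stage 12 and by 0.96 at stage 13 (adjusted p = 0.0034 and 0.0019), opposite to *HAF*. The 4 *NGA* genes, *ALC* and *SEU* did not pass the test in this mutant. The list medians of -0.20 and -0.16 at these stages stood beside 0.01 and -0.0015 over all probe sets.

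Since *HAF* is also known from brassinosteroid response, 17 genes of that pathway were listed, of which 2 were measured, both through the study's list. *ROT3*, a brassinosteroid hydroxylase, fell in *arf6-2 arf8-3* by 1.08 at stage 12 and by 1.55 at stage 13 (adjusted p = 0.00010 and 1.5e-06). *TCH4*, a cell wall enzyme gene induced by brassinosteroids, rose at stage 12 by 1.71 (adjusted p = 0.048) in the same mutant and fell by 2.72 in *myb21-5 myb24-5* at stage 13 (adjusted p = 0.0076). The second call was lost without *myb21-5 myb24-5* stage 13 replicate B, the *ROT3* call at stage 12 without *arf6-2 arf8-3* stage 12 replicate B, and the *TCH4* call at stage 12 without replicate A or B of wild type or any replicate of *arf6-2 arf8-3* at that stage, each leaving 0 of the 2 genes called in that direction.

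Jasmonate promotes the petal form of the *BPE* transcript, and 6 of 13 listed genes of jasmonate synthesis and perception were measured, all named through the study's lists, which were chosen on these arrays. In *arf6-2 arf8-3* 5 of the 6 fell at stage 12 (background 6.86%) and 3 at stage 13 (background 9.3%), while *BPE* fell at both stages. In *myb21-5 myb24-5* all 6 were called higher at stage 13 (background 2%), where *BPE* was higher by 0.74. At stage 12, 4 of the 6 rose in this mutant, while the *BPE* change was below 0 and did not pass the test. Since the lists were chosen on these arrays, these counts cannot be read against the background. *LOX4* and *OPR3*, which encode synthesis enzymes, changed by -1.80 and -1.08 in *arf6-2 arf8-3* at stage 12 (adjusted p = 2.0e-06 and 0.00028). In *myb21-5 myb24-5* at stage 13 *LOX4* rose by 3.47, *LOX3* by 2.93, *LOX2* by 1.52 and *OPR3* by 1.46 (adjusted p of at most 5.0e-05). These genes and *BPE* share their wild-type arrays, so that the sides they take are not independent.

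Over the 6 group means, each profile centred on its own mean, *AT5G07420*, annotated as a pectinesterase, was most like *BPE*, with a root-mean-square difference of 0.16 on the log2 scale. It was followed by *AT5G14150* (0.21), *CYP94C1* (0.24), the pectate lyase gene *AT1G04680* (0.24) and *AT2G32430* (0.24), a galactosyltransferase gene. *CYP94C1* encodes an enzyme that oxidises the active jasmonate conjugate. The median over the 13947 other named probe sets compared was 0.86. Like *BPE*, these 5 had their lowest means in the *arf6-2 arf8-3* groups.

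The genes most like *HAF* by the same measure were *AT4G31875* (0.06), *AT1G62840* (0.08), *AT5G53110* (0.08), *AT3G46880* (0.09) and *CSLC5* (0.09), a cellulose synthase-like gene. Here the median of all was 0.36. The SD of *HAF* reached 0.46 (wild type at stage 13), above the differences of these genes from it. *AT3G46880* had group means from 4.75 to 5.57 and *AT1G62840* from 5.45 to 6.29, low values beside the 9.44 to 10.42 of *HAF*. The profiles give 6 points from 17 arrays, and genes were ranked by them without a test.

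**Figure D4:**
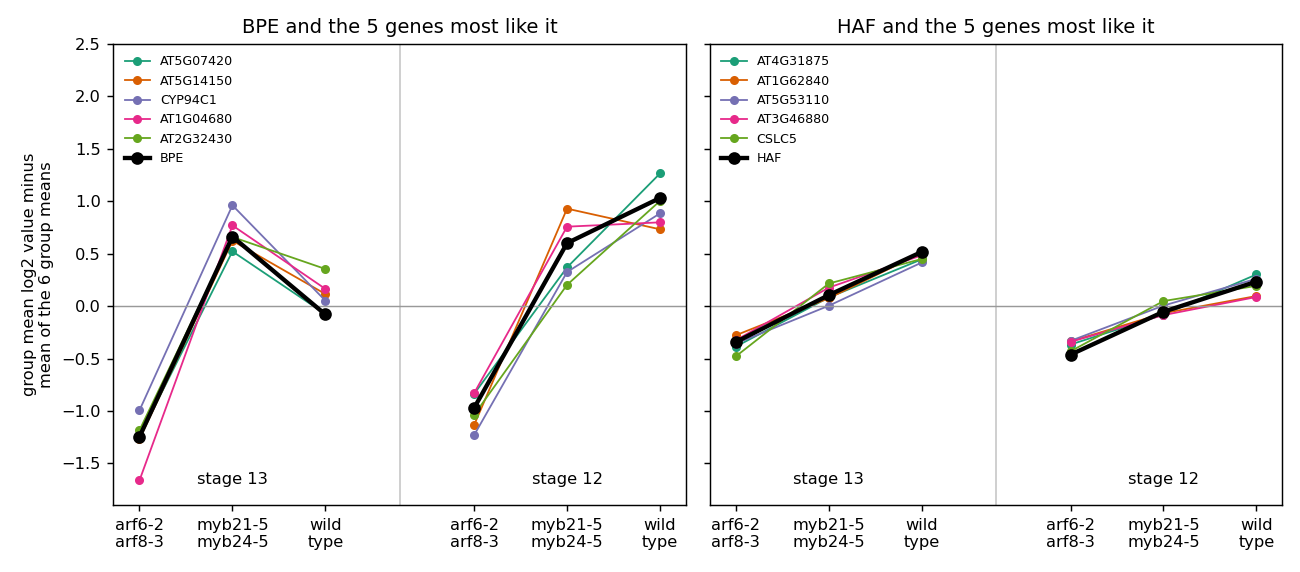
Group mean log2 value minus the mean of the 6 group means, for *BPE* (left, black) and *HAF* (right, black) and the 5 genes most like each (colours), by genotype at stage 13 and stage 12. *BPE* and its 5 genes are lowest in both *arf6-2 arf8-3* groups, and *HAF* spans a narrower range, from -0.46 to 0.52.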

How the data were processed

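The authors scanned the ATH1 arrays with MAS5 software and corrected and normalised the raw data by RMA, which gave the deposited log2 value of each probe set. No further scaling was applied. An array gives no read depth, and the number of arrays limits the precision. Of 22810 probe sets, 64 controls were left out. Of the rest, 13513 match 1 gene in the platform table and 540 were named only through the study's tables. The last hold genes chosen on these arrays.

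With limma 3.58.1 (R 4.3.3), lmFit and eBayes were run on 17 arrays with 6 group means and 11 two-sided contrasts, adjusted by Benjamini-Hochberg over all probe sets. The methods' own test, a t-test without correction and with a 2-fold cutoff, was run as an alternative. Probe sets were called at an adjusted p under 0.05 and 2-fold (for the stage by genotype terms, a difference of 1 on the log2 scale). The script was first tested on simulated data.

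Members, gene lists, tests and the array left out were chosen with earlier results of these data known. Named were *BPE*, *HAF*, every measured bHLH relative, up to 4 called members of each list over the 4 comparisons with wild type (2 where none was called), and 5 genes most like each member. *JAG*, *NUB*, *RBE*, *PTL*, *SPT*, *ALC*, *SEU* and the *NGA* genes were named beyond this rule, after their values were seen. The highest probe set stood for a gene.

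Same-letter arrays deviated together, with every correlation over 0.1, in 5 of the 6 comparisons with 3 letters, the exception being *arf6-2 arf8-3* against wild type in stage 12 flowers. An alternative fit took the letters as blocks.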

Additional observations from a re-analysis of the deposited data

Results flagged for a closer look

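The stage change of *BPE* differed between *myb21-5 myb24-5* and wild type by 1.17 on the log2 scale in the stage by genotype term. The mutant had 10.81 at stage 13 and 10.75 at stage 12 as group means, against 10.07 and 11.18 in wild type. The mutant's stage 13 mean comes from 2 arrays.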

How the results depend on the processing

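Of 604 values for *BPE* and *HAF* (22 results under 28 alternatives, with those that could not be fitted left out), 581 kept their direction and their side of the threshold. The decreases of *BPE* in *arf6-2 arf8-3* against wild type were called under all alternatives run. With all 18 arrays, the *BPE* stage change of wild type (-1.11, adjusted p = 0.0949), the *BPE* difference between the mutants at stage 13 (-1.25) and the stage by genotype term of *BPE* for *myb21-5 myb24-5* (0.51) were no longer called, and the uncalled stage changes in *myb21-5 myb24-5* turned to -0.60 for *BPE* and -0.0327 for *HAF*. After Benjamini-Hochberg adjustment the methods' t-test no longer called *BPE* between the wild-type stages (-1.11) or between the mutants at stage 12 (-1.57) and stage 13 (-1.91), with adjusted p of 0.102, 0.0708 and 0.0603. It gave 0.189 for *HAF* in *arf6-2 arf8-3* and 0.0944 for *BPE* in *myb21-5 myb24-5* at stage 13. At a 1.5-fold cutoff *BPE* in *myb21-5 myb24-5* (0.74) and *HAF* in *arf6-2 arf8-3* (-0.86) at stage 13 were called too. With all 18 arrays 3 of the 6 jasmonate genes were called higher in *myb21-5 myb24-5* at stage 13, in place of all 6. With array weights the *BPE* stage change in *myb21-5 myb24-5* was -0.0291.

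In the fit that took the replicate letter as a block, the *HAF* decrease in *arf6-2 arf8-3* had an adjusted p of 0.0019 at stage 12 (-0.70, SE 0.13) and of 0.00024 at stage 13 (-0.86, SE 0.13), both under the 2-fold cutoff. The stage 12 decrease thus passed the test with the block and not without it. The *HAF* difference between the mutants at stage 13 was -0.59 (adjusted p = 0.0125), which also passed the test with the block only. The stage 12 letters did not pair these groups by the check. The stage by genotype term of *HAF* for *myb21-5 myb24-5* was 0.0219, and that of *BPE* for *arf6-2 arf8-3* stayed at 0.84 (adjusted p = 0.0496). The block changed no call at the 2-fold cutoff.

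Leaving out 1 array at a time gave ranges of -1.29 to -0.98 for the *BPE* stage change in wild type, 1.03 to 1.35 for its stage by genotype term in *myb21-5 myb24-5*, 0.70 to 1.02 for that in *arf6-2 arf8-3*, and -0.0789 to 0.146 for its stage change in *myb21-5 myb24-5*. For *HAF* they were -1.09 to -0.63 in *arf6-2 arf8-3* at stage 13, -0.0371 to 0.283 for the stage change in *arf6-2 arf8-3*, -0.362 to 0.108 for the stage by genotype term in *myb21-5 myb24-5*, and -0.40 to 0.0696 for that in *arf6-2 arf8-3*. The causes of these shifts were not tested.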
